A study of Mus musculus with 12 samples.

Results

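Macrophages and monocytes were followed in the rectal RNA by 10 genes that these cells are known for, namely Adgre1, Csf1r, Cd68, Lyz2, Cd14, Mrc1, Cd163, C1qa, C1qb and C1qc. The genes were chosen by name. All 10 are among the 17734 genes of the expression table, and all 10 passed the filter on low values that left 15315 genes to test. The samples were rectal tissue, measured by bulk RNA-seq, of 12 male C57BL/6 mice that were 8 to 10 weeks old, which form 4 groups of 3. Normal mice drank water and received no berberine (BBR, a plant alkaloid). Colitis mice drank 2.5% dextran sulfate sodium (DSS), a polymer that injures the bowel lining, for 7 days. Another group of normal mice and another of colitis mice received 100 mg/kg of BBR daily by gavage, for 7 days in the written protocol and for 6 days in the labels. By their labels the normal mice of either arm carry the numbers 1, 3 and 4, the colitis mice without BBR 1, 2 and 4, and the BBR-treated colitis mice 2, 3 and 4. Values are given in that order below. Values are in FPKM, a level scaled for transcript length and depth, so levels of different genes can be compared per length.

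Macrophages of the gut wall are replenished from blood monocytes that enter the tissue and mature there under signals from the growth factor receptor Csf1r. In the healthy bowel they clear dead cells and bacteria with little inflammation, and during injury freshly recruited monocytes give rise to cells that release inflammatory cytokines. Adgre1 (the F4/80 antigen) and Csf1r mark the lineage, Cd68 and Lyz2 belong to the lysosome and its secretions, Cd14 binds bacterial endotoxin, Mrc1 and Cd163 are scavenger receptors of mature macrophages, and C1qa, C1qb and C1qc encode the chains of complement C1q. In bulk RNA, fewer cells of a type and less RNA per cell cannot be told apart.

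Some libraries stood apart before any of these genes was considered. The 4 mice numbered 4 had totals of 482194 to 504337 FPKM and 872 to 1086 genes at 0, against 696286 to 765876 FPKM and 1332 to 1926 genes at 0 in the other 8. Among colitis mice receiving BBR, mouse 4 also differed in the neutrophil gene S100a8, at 0.31 FPKM against 118 and 148 FPKM in mice 2 and 3, and in the smooth muscle gene Myh11, at 286 FPKM against 17.3 and 30.1 FPKM. S100a8 was at 24.9 FPKM in colitis mouse 4, against 336 and 290 FPKM in colitis mice 1 and 2, and it was at 0 in all 6 mice without DSS. For the 10 genes, values without these mice are therefore given in each comparison, whereas the ratios and the gene lists rest on all 12 mice. Low values come in steps that reveal what 1 read is worth, namely 51.3 to 58.5 FPKM times transcript length for the mice numbered 4 and 76.3 to 85.8 for the others. On that scale the lowest value of any of the 10 genes, Cd163 at 0.27 FPKM in 1 mouse, stands for about 14 reads, and the lowest value of Adgre1 for about 68 reads, so counting error limits Cd163 most.

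The order of the mean levels over the 12 mice was Lyz2 at 154 FPKM, C1qa at 46.7, Cd14 at 42.1, C1qb at 42.0, C1qc at 39.3, Cd68 at 12.1, Csf1r at 6.27, Mrc1 at 4.43, Adgre1 at 2.51 and Cd163 at 1.11 FPKM. The levels of C1qa, Cd14, C1qb and C1qc lay within their spread over the mice, with standard deviations of 29.1, 22.5, 27.3 and 20.9 FPKM. Colitis mouse 2 had the highest value of all 12 mice for 9 of the 10 genes, and the exception was Cd14. Colitis mice receiving BBR held the lowest value for 8 of the 10 genes, 5 of them in mouse 4, 2 in mouse 2 and 1 in mouse 3.

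**Figure D1:**
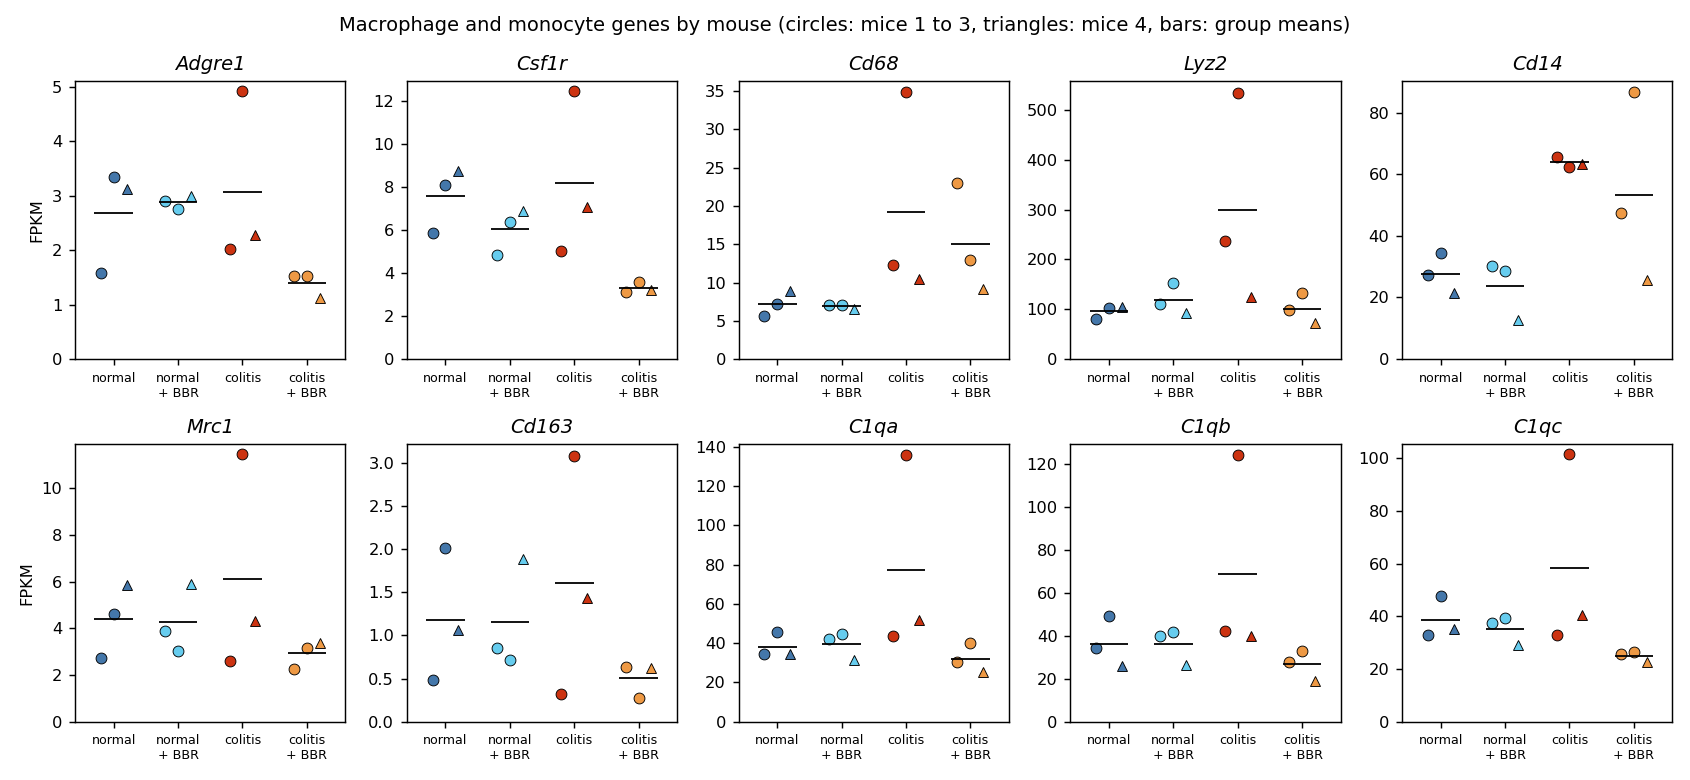
Level of each of the 10 genes in FPKM (vertical axis, from 0) in every mouse of the 4 groups, with circles for mice 1 to 3, triangles for mice 4 and bars for group means. Colitis mouse 2 is the highest point for 9 of the 10 genes, while Cd14 lies between 62.5 and 65.5 FPKM in all 3 colitis mice.

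For Lyz2, Cd68, C1qb and C1qc the sequence before the gene start is shown, because Lyz2 and Cd68 were higher in every colitis mouse than in every normal mouse while C1qb and C1qc were lower in every colitis mouse receiving BBR than in every colitis mouse. RefSeq (GRCm38.p6) gave such a sequence for 6 of the 10 genes, the others being Mrc1 and Cd163. The 250 bases before the start are printed 5′ to 3′ on the strand of the gene. Capitals mark GAGGAA or its reverse complement TTCCTC, and TGANTCA, the site of AP-1 factors, each searched on both strands. GAGGAA is a form of the site bound by PU.1, a transcription factor of macrophages. Other forms of that site were not searched, so a window without capitals may still hold them.
Lyz2 (chr10:117282273-117282522, minus strand): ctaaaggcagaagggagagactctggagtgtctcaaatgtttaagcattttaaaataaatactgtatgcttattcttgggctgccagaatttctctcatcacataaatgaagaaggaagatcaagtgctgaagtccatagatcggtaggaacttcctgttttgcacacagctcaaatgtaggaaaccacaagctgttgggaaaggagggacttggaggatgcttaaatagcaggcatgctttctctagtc
Cd68 (chr11:69666171-69666420, minus strand): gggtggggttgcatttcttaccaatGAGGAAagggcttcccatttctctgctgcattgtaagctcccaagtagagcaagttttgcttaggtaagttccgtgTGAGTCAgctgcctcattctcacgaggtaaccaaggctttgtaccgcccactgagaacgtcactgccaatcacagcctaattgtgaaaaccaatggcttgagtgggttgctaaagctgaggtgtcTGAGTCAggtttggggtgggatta
C1qb (chr4:136886201-136886450, minus strand): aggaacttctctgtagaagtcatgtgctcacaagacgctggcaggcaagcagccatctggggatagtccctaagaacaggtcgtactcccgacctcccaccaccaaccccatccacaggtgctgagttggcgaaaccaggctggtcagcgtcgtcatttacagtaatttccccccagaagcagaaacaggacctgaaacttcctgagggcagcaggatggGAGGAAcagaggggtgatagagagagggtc
C1qc (chr4:136892915-136893164, minus strand): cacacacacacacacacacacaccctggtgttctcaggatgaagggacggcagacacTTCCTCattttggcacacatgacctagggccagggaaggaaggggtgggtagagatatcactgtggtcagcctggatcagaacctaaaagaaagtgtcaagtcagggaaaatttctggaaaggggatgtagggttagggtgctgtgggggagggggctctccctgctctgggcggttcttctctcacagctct
GAGGAA was found before C1qb, C1qc, Cd68 and Mrc1, so in 4 of the 6 windows, and it is present in 23.3% of all 32851 windows of that length. TGANTCA was found before Cd68 only, where it occurs at 2 places, and in 6.75% of all windows. The motifs do not overlap in these windows, and a match is a description of the letters. The 3 C1q genes are direct neighbours on chromosome 4 of this assembly, between Ephb2 and Epha8.

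Cd68, a glycoprotein of lysosomes, was at 5.66, 7.14 and 8.90 FPKM in normal mice and at 12.3, 34.9 and 10.4 FPKM in colitis mice. It was at 7.12, 7.03 and 6.57 FPKM in normal mice receiving BBR and at 22.9, 12.9 and 9.16 FPKM in colitis mice receiving BBR. Every mouse given DSS was therefore above every mouse without it, with or without BBR. Averaged over both BBR arms, Cd68 rose in colitis by a log2 difference of 1.10 (SE 0.31, limma adjusted p = 0.0399, Benjamini-Hochberg over all genes tested), and an exact permutation test within the arms gave p = 0.005, the smallest it can give. The call depended on the mice in the fit, since omitting 1 mouse at a time cost the call in 10 of 12 fits, with adjusted p-values up to 0.0914, and it was kept without colitis mouse 4 (0.0240) and without colitis mouse 4 receiving BBR (0.0118). With the replicate block the log2 difference was 0.66 (limma adjusted p = 0.0432). For BBR in colitis the groups overlapped, with a log2 difference of −0.24 and a 95% interval from −1.18 to 0.71.

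Lyz2 encodes the lysozyme of macrophages, which neutrophils make too. It was at 81.3, 102 and 105 FPKM in normal mice and at 238, 535 and 124 FPKM in colitis mice, again without overlap, with the smallest gap in the mice numbered 4. In normal mice receiving BBR it was at 111, 153 and 92.1 FPKM and in colitis mice receiving BBR at 97.7, 132 and 72.2 FPKM. The BBR-treated colitis mice thus lay inside or below the range of the 6 mice without DSS. The log2 difference was 1.39 (SE 0.44, limma adjusted p = 0.119) for colitis against normal. It was −1.36 (SE 0.44, limma adjusted p = 0.558) for BBR in colitis. Over the fits without 1 mouse the first ranged from 0.84 without colitis mouse 2 to 1.90 without colitis mouse 4, and only the latter passed the adjusted limit (limma adjusted p = 0.0422). For BBR in colitis the range was −1.87 without colitis mouse 4 to −0.81 without colitis mouse 2. The groups of the second comparison overlapped, since BBR-treated mouse 3 lay above colitis mouse 4. Reads of Lyz2 may be shared with its close copy Lyz1, which was at a mean of 7.42 FPKM in normal and 20.3 FPKM in colitis mice, and how the authors' counting split them was not tested.

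Cd14 encodes the endotoxin co-receptor carried by monocytes and macrophages, and which cells of the rectum its RNA came from was not tested. It was at 27.3, 34.5 and 21.4 FPKM in normal mice. In colitis mice it was at 65.5, 62.5 and 63.4 FPKM, the narrowest group of any of the 10 genes relative to its level. In normal mice receiving BBR it was at 30.2, 28.6 and 12.6 FPKM and in colitis mice receiving BBR at 47.3, 86.6 and 25.7 FPKM. Colitis mice without BBR therefore lay close together and above all mice without DSS, while the BBR-treated colitis mice spread from the normal range to the highest value of the series. Averaged over both BBR arms Cd14 rose by a log2 difference of 1.16 (SE 0.30, limma adjusted p = 0.0336), and an exact permutation test within the arms gave p = 0.015. Omitting 1 mouse at a time cost this call in 9 of 12 fits, with adjusted p-values up to 0.0755, and it was kept without mouse 1 of the normal mice receiving BBR (0.0480), without colitis mouse 4 (0.0329) and without colitis mouse 4 receiving BBR (0.00460). Without BBR alone the log2 difference was 1.23 (SE 0.42, limma adjusted p = 0.140), and with the replicate block it was 1.45 (adjusted p = 0.0347). Among the BBR-treated mice the log2 difference was 1.09 (SE 0.42, limma adjusted p = 0.224), and it ranged from 0.65 without mouse 3 of the colitis mice receiving BBR to 1.53 (adjusted p = 0.0320) without mouse 4 of them. It was 0.68 without mouse 4 of the normal mice receiving BBR. For BBR in colitis it was −0.43, with a 95% interval from −1.35 to 0.48. It was 0.00 without mouse 4 of the colitis mice receiving BBR and −0.87 without mouse 3 of them.

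Csf1r, the receptor that keeps macrophages alive, was at 5.83, 8.08 and 8.74 FPKM in normal mice and at 5.01, 12.4 and 7.08 FPKM in colitis mice. In BBR-treated normal mice it was at 4.85, 6.37 and 6.89 FPKM. In colitis mice receiving BBR it was at 3.13, 3.56 and 3.21 FPKM, below each of the other 9 mice. The log2 difference of BBR in colitis was −1.19 (SE 0.31, limma adjusted p = 0.486), rank 82 of 15315 genes by its p-value. It kept its sign in each of the 6 fits without 1 mouse, between −1.48 and −0.84, and was −1.22 in the mice numbered 1 to 3 and −1.12 in the mice numbered 4. Against normal mice receiving BBR the log2 difference was −0.84 (SE 0.31, limma adjusted p = 0.222), again without overlap. In colitis without BBR it was 0.03 with a 95% interval from −0.65 to 0.72, and −0.32 without colitis mouse 2.

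Adgre1, the F4/80 adhesion receptor, followed Csf1r at a lower level. It was at 1.59, 3.34 and 3.12 FPKM in normal mice, 2.90, 2.75 and 3.0 FPKM in normal mice receiving BBR, and 2.03, 4.92 and 2.28 FPKM in colitis mice. In colitis mice receiving BBR it was at 1.53, 1.53 and 1.12 FPKM, below each of the other 9 mice. Its log2 difference was −0.99 (SE 0.38, limma adjusted p = 0.651) for BBR in colitis, and −0.61 without colitis mouse 2. For colitis against normal mice, both receiving BBR, it was −1.01 (SE 0.38, limma adjusted p = 0.222). For colitis against normal it was 0.15, with a 95% interval from −0.68 to 0.98.

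C1qa, C1qb and C1qc encode the chains that assemble into C1q, the recognition part of the classical complement pathway, which macrophages are a main source of. C1qa was at 34.5, 45.7 and 34.7 FPKM in normal mice, 42.0, 44.9 and 31.2 FPKM in normal mice receiving BBR, 43.7, 136 and 51.8 FPKM in colitis mice, and 30.6, 40.2 and 25.6 FPKM in colitis mice receiving BBR. C1qb was at 34.2, 49.1 and 26.0 FPKM in normal mice, 40.1, 41.7 and 26.2 FPKM in normal mice receiving BBR, 42.3, 124 and 40.1 FPKM in colitis mice, and 28.0, 33.0 and 19.0 FPKM in colitis mice receiving BBR. C1qc was at 33.0, 47.9 and 35.4 FPKM in normal mice, 37.6, 39.2 and 29.3 FPKM in normal mice receiving BBR, 33.0, 102 and 40.4 FPKM in colitis mice, and 25.6, 26.3 and 22.6 FPKM in colitis mice receiving BBR. Each chain was lower in every colitis mouse receiving BBR than in every colitis mouse, and all 3 overlapped between colitis and normal mice, where colitis mouse 2 alone stood far out. The log2 differences of BBR in colitis were −1.10 (SE 0.37) for C1qa, −1.19 (SE 0.42) for C1qb and −1.05 (SE 0.35) for C1qc, with limma adjusted p-values of 0.584, 0.608 and 0.568. Without colitis mouse 2 they were −0.59, −0.66 and −0.56.

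The 3 chains kept close to equal levels per length. Over the 12 mice the ratio of C1qa to C1qb lay between 0.93 and 1.35, of C1qb to C1qc between 0.734 and 1.28, and of C1qa to C1qc between 0.953 and 1.53, while C1qa itself spanned 5.33-fold. The ratio of C1qa to C1qc was 0.992 ± 0.0462 in normal mice, 1.11 ± 0.0404 in normal mice receiving BBR, 1.31 ± 0.0298 in colitis mice and 1.28 ± 0.213 in colitis mice receiving BBR (SD, n = 3 each). Its values did not overlap between colitis and normal mice without BBR, nor between normal mice with and without BBR, while they overlapped between the groups receiving BBR and between colitis mice with and without BBR. This ratio was singled out after its values were seen, and it is given without a test.

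**Figure D2:**
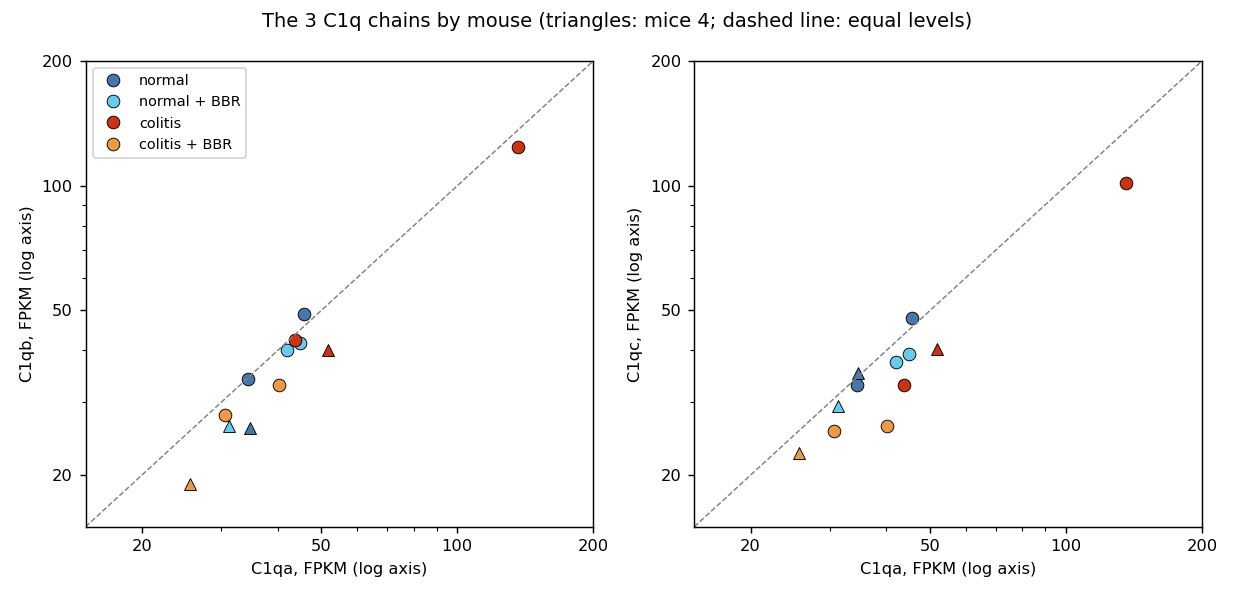
C1qb (left) and C1qc (right) against C1qa in each of the 12 mice, in FPKM on log axes, with groups by colour, triangles for mice 4 and a dashed line at equal levels. The points follow the line from colitis mouse 4 receiving BBR at 25.6 FPKM of C1qa to colitis mouse 2 at 136 FPKM. C1qc lies below the line in all mice, with or without DSS, except normal mice 3 and 4.

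Mrc1, the mannose receptor of mature macrophages, was at 2.72, 4.61 and 5.85 FPKM in normal mice, 3.90, 3.01 and 5.89 FPKM in normal mice receiving BBR, 2.59, 11.4 and 4.33 FPKM in colitis mice, and 2.25, 3.17 and 3.37 FPKM in colitis mice receiving BBR. Cd163, which takes up haptoglobin with hemoglobin, was at 0.48, 2.01 and 1.06 FPKM in normal mice, 0.85, 0.71 and 1.89 FPKM in normal mice receiving BBR, 0.32, 3.08 and 1.43 FPKM in colitis mice, and 0.63, 0.27 and 0.62 FPKM in colitis mice receiving BBR. Both genes varied more within the groups than Csf1r did, with a within-group SD of 0.66 for Mrc1 and 0.98 for Cd163 on the log2 scale, against 0.39 for Csf1r. The log2 difference of BBR in colitis was −0.79 for Mrc1, with a 95% interval from −1.86 to 0.28, and −1.13 for Cd163, with an interval from −2.69 to 0.42. Without colitis mouse 2 these were −0.21 and −0.47, and without colitis mouse 1 they were −1.26 and −1.93. For colitis against normal it was 0.27 for Mrc1, with an interval from −0.80 to 1.33, and 0.18 for Cd163, with an interval from −1.38 to 1.73. Cd163 was lower in every colitis mouse receiving BBR than in every normal mouse receiving BBR, and these 6 values range from 0.27 to 1.89 FPKM.

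The comparison of colitis with normal mice asks how DSS changed the tissue. All 10 genes had a higher mean in colitis mice, with a median log2 difference of 0.59 against −0.32 for all genes tested. By limma, 0 of the 10 passed the adjusted limit of 0.05, which 1.08% of all genes passed. Cd68, Lyz2, Cd14 and C1qa, so 4 of the 10, were higher at an unadjusted P of at most 0.05, against 5.56% of all genes, and 3 of the 10 (Cd68, Lyz2 and Cd14) were above normal in every mouse, against 7.10% of all genes. C1qa and C1qb were also higher in each of the 6 fits without 1 mouse, at 0.33 to 1.14 and 0.23 to 1.04, while the directions of the other 5 genes rested on single mice. Without colitis mouse 2, Adgre1, Csf1r, Mrc1, Cd163 and C1qc were lower, the median was 0.08 and 2 of the 10 genes were at an unadjusted P of at most 0.05. There were also 2 without normal mouse 1, where Adgre1, Csf1r, Mrc1 and Cd163 were lower. Within the mice numbered 4, 1 mouse against 1, 7 of the 10 were higher, with a median of 0.23, and within the mice numbered 1 to 3 all 10 were, with a median of 0.72.

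**Figure D3:**
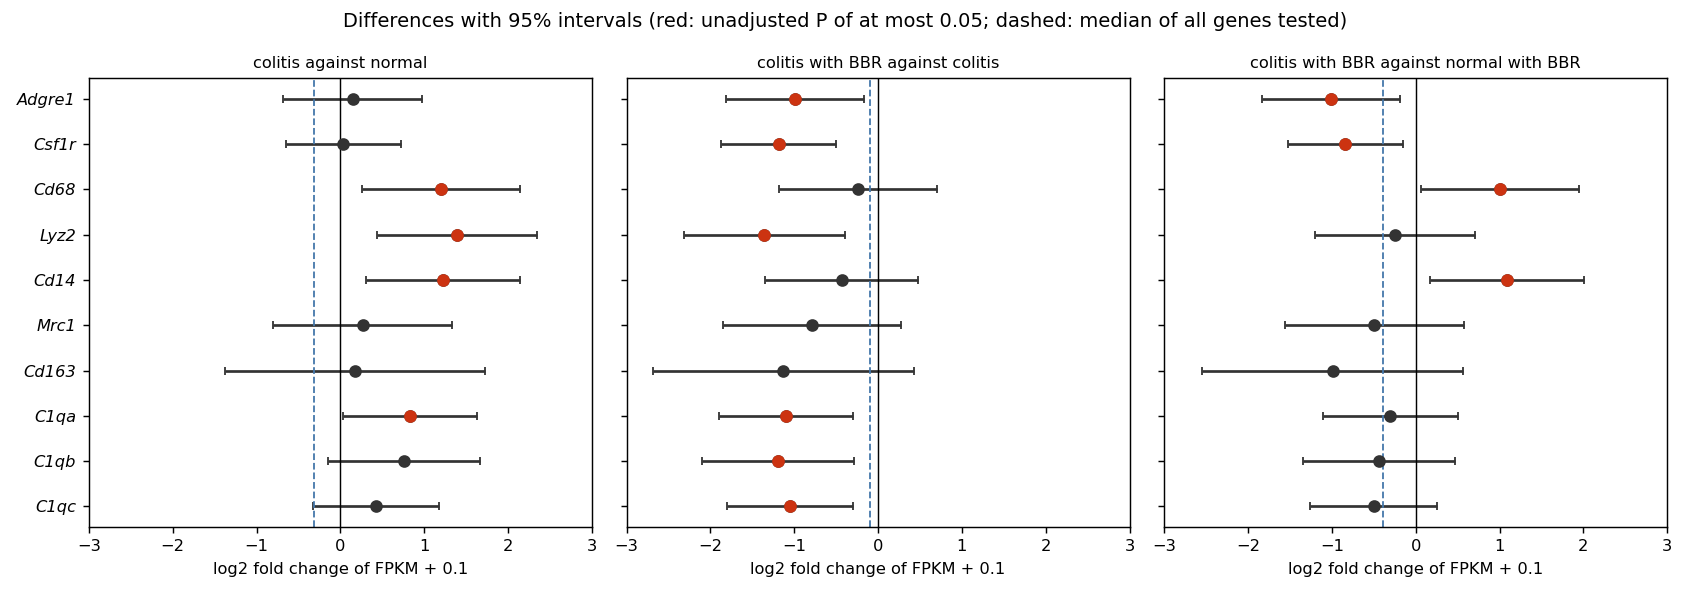
Log2 differences of FPKM + 0.1 (horizontal axis) for the 10 genes in 3 comparisons, with 95% intervals from the limma fit, red points at an unadjusted P of at most 0.05 and a dashed line at the median of all genes tested. Cd68 and Cd14 lie above 1 in both comparisons of DSS with water, whereas all 10 genes lie below 0 in the comparison of BBR within colitis.

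In normal mice, BBR was compared with no treatment. On the log2 scale the 10 genes split into 5 with higher and 5 with lower means, their median log2 difference being −0.01 against −0.02 for all genes. The differences ran from −0.31 for Csf1r to 0.28 for Lyz2. None of the 10 reached an unadjusted P of at most 0.05, which 1.36% of all genes did, and 0 passed the adjusted limit by limma. All 10 overlapped between the groups, where 9.62% of all genes did not. Csf1r was lower with BBR in each of the 3 same-numbered pairs. With the replicate block its log2 difference was again −0.31 (limma adjusted p = 1.00), and 0 of the 10 genes reached either limit. Without the mice numbered 4, the median over the 10 genes was −0.03, and 4 of them were higher. The split depended on single mice, since 1 gene was higher and the median −0.22 without normal mouse 1, and 7 were higher with a median of 0.10 without normal mouse 3.

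In colitis mice, BBR was compared with no treatment. All 10 genes had a lower mean with BBR, with a median log2 difference of −1.07 against −0.09 for all genes. By limma 0 of the 10 passed the adjusted limit. Adgre1, Csf1r, Lyz2, C1qa, C1qb and C1qc, so 6 of the 10, were lower at an unadjusted P of at most 0.05, against 5.20% of all genes. After centring each mouse on its median, all 10 were still lower, with a median of −0.92, and 1 of the 10 reached that limit. Adgre1, Csf1r, C1qa, C1qb and C1qc, so 5 of the 10, were lower in every treated mouse than in every colitis mouse, against 5.66% of all genes. Without colitis mouse 2, 9 of the 10 were lower, the median was −0.57, and Cd68 was at 0.30. Without mouse 4 of the colitis mice receiving BBR, 8 of the 10 were lower, with a median of −0.96, while Cd14 was at 0.00 and Cd68 at 0.06. Within the mice numbered 4 all 10 were lower, with a median of −0.99. Within the mice numbered 1 to 3, 9 of the 10 were lower, with a median of −1.14, the exception being Cd14 at 0.00. Cd68 was at −0.26, Adgre1 at −1.0, Lyz2 at −1.65, Mrc1 at −1.01, Cd163 at −1.15, C1qa at −1.14, C1qb at −1.25 and C1qc at −1.16.

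**Figure D4:**
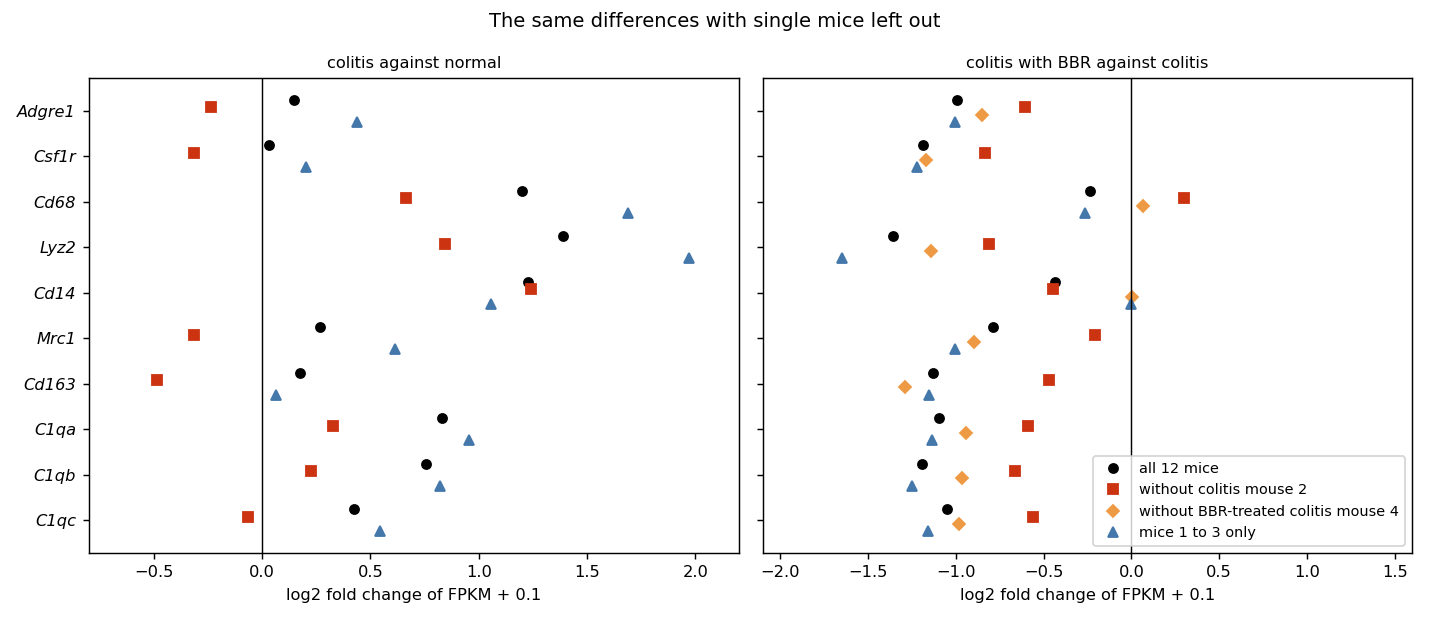
Log2 differences of FPKM + 0.1 (horizontal axis) for the 10 genes with all 12 mice (black circles), without colitis mouse 2 (red squares), without mouse 4 of the colitis mice receiving BBR (orange diamonds, right panel only) and with the mice numbered 1 to 3 alone (blue triangles). For colitis against normal (left), 5 of the 10 genes move below 0 without colitis mouse 2, and for BBR in colitis (right) Csf1r lies between −1.22 and −0.84 in the fits without colitis mouse 2 and with the mice numbered 1 to 3.

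Among the mice receiving BBR, colitis was compared with normal. Here Cd68 and Cd14 were higher and the other 8 genes lower, with a median log2 difference of −0.47 against −0.40 for all genes. At an unadjusted P of at most 0.05, Cd68 and Cd14 were higher, against 2.37% of all genes, and Adgre1 and Csf1r lower, against 17.3%. These 4 became 0 without mouse 4 of the normal mice receiving BBR, and 2 without mouse 3 of either group. By limma 0 of the 10 passed the adjusted limit. Only Cd68 of the 10 was above the other group in every mouse, against 2.26% of all genes. Adgre1, Csf1r, Cd163 and C1qc, so 4 of the 10, were below in every mouse, against 18.0% of all genes. With only the mice numbered 1 to 3, Cd68 and Cd14 were again higher and the other 8 lower, with a median of −0.39, and Cd14 passed the adjusted limit (1.12, limma adjusted p = 0.0455). After centring each mouse on its median, the median of all genes moved from −0.40 to 0.06, and 5 of the 10 genes were then higher and 5 lower. This comparison and that of BBR in colitis share the colitis mice receiving BBR. Colitis against normal and BBR in colitis share the colitis mice without BBR. The counts of comparisons that share a group are not independent.

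With both BBR arms averaged, 2 of the 10 genes, Cd68 and Cd14, rose past the adjusted limit, which 2.85% of all genes did in that direction. Of the other 8, C1qa, C1qb and Lyz2 had higher and Adgre1, Csf1r, Mrc1, Cd163 and C1qc lower means on the log2 scale. This split depended on the scaling. Of the 10, 9 were higher after quantile normalization, all but Csf1r, and 7 after centring on the median, all but Csf1r, Cd163 and Adgre1, and the median of 0.06 became 0.32 and 0.46. With only the mice numbered 1 to 3, Lyz2 passed too (0.89, limma adjusted p = 0.0426). The interaction asks whether BBR acted differently in colitis and in normal mice. All 10 estimates were below 0, with a median of −1.03 against −0.08 for all genes. With all 12 mice Lyz2, so 1 of the 10, reached an unadjusted P of at most 0.05 (−1.64, SE 0.62, limma adjusted p = 1.00), against 1.72% of all genes in that direction. Without colitis mouse 2 the median was −0.51. The count was not stable either. It was 7 without colitis mouse 1, 4 without colitis mouse 4 or normal mouse 3, 3 without mouse 4 of the normal mice receiving BBR, 2 without mouse 3 of the colitis mice receiving BBR, and 0 without mouse 3 of the normal mice receiving BBR, without mouse 4 of the colitis mice receiving BBR, or after centring. With only the mice numbered 1 to 3, 9 of the 10 estimates were below 0, with a median of −1.03.

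Levels relative to Csf1r set the genes side by side within a mouse. The ratio of Cd14 to Csf1r was 4.68, 4.26 and 2.45 in normal mice and 13.1, 5.02 and 8.96 in colitis mice. It was 6.22, 4.50 and 1.83 in BBR-treated normal mice and, in colitis mice that received BBR, 15.1, 24.3 and 8.0. The ratio of Cd68 to Csf1r lay between 0.884 and 1.02 in normal mice, between 0.954 and 1.47 in normal mice receiving BBR, between 1.48 and 2.80 in colitis mice, and between 2.85 and 7.33 in colitis mice receiving BBR. Both ratios were thus higher in every colitis mouse than in every normal mouse of the same arm, and that of Cd68 was also higher in every BBR-treated than in every untreated colitis mouse. Without BBR, the ratio of Lyz2 to Csf1r was also higher in every colitis mouse (17.49 to 47.49) than in every normal mouse (12.05 to 13.95). The same held for C1qa to Csf1r (7.31 to 10.9 against 3.97 to 5.91). Among mice receiving BBR these ratios of Lyz2 and C1qa overlapped. The ratio of Mrc1 to Csf1r lay between 0.467 and 1.05 over all 12 mice and that of Adgre1 between 0.273 and 0.598. For both, colitis and normal mice of the same arm overlapped, and so did colitis mice with and without BBR. The ratio of Adgre1 was higher in every normal mouse receiving BBR (0.432 to 0.598) than in every normal mouse without it (0.273 to 0.413), while that of Mrc1 overlapped between them. These ratios were chosen after the values were seen, and they are given without a test.

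**Figure D5:**
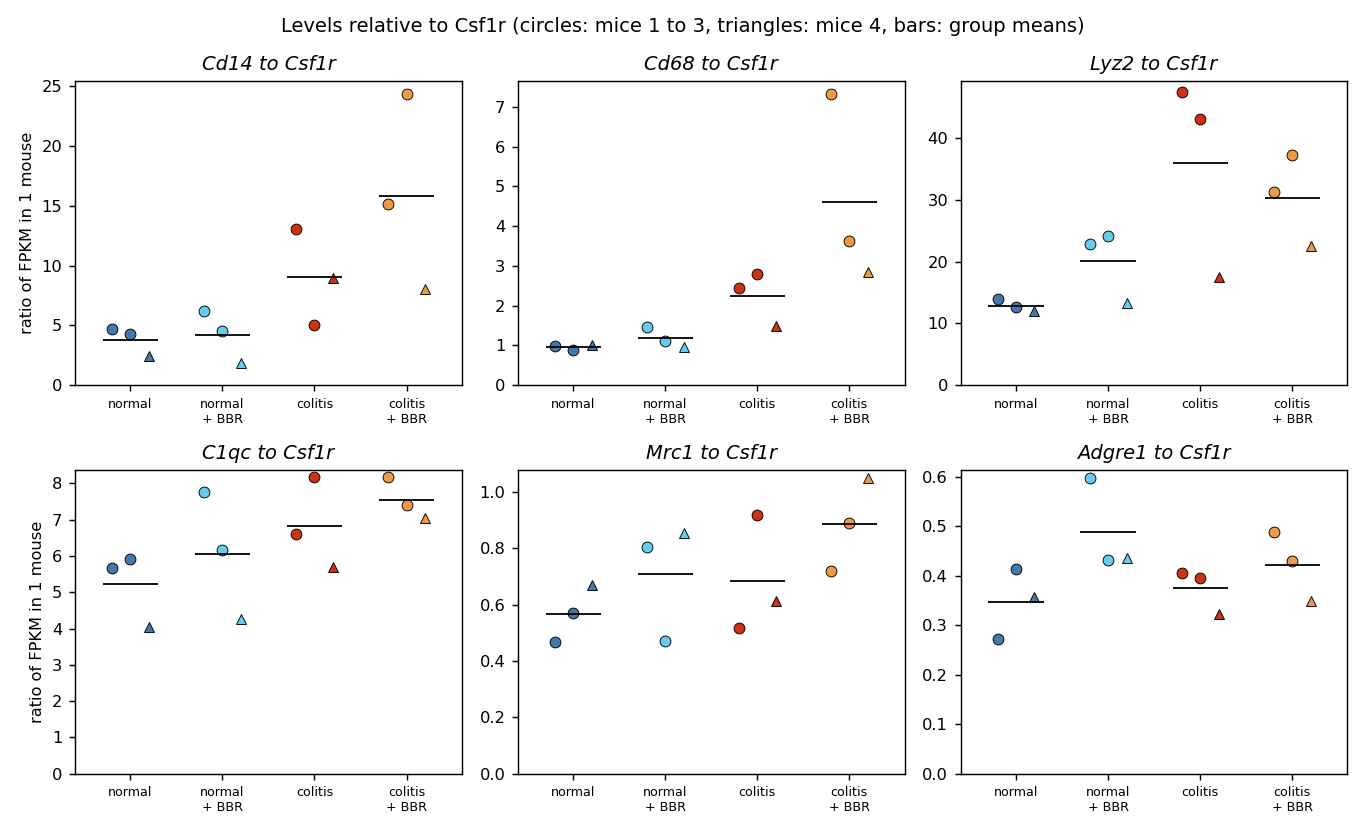
Ratio of the FPKM of 6 genes to that of Csf1r in the same mouse (vertical axis, from 0) for the 4 groups, with circles for mice 1 to 3, triangles for mice 4 and bars for group means. Cd68 to Csf1r lies between 2.85 and 7.33 in colitis mice receiving BBR and at most at 1.47 in mice without DSS, while the ratios of Adgre1 and Mrc1 overlap between colitis and normal mice of the same arm.

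Among the 11933 other genes with a mean of at least 1 FPKM, those most like the mean profile of the 3 C1q chains were Fxyd5, Renbp, Ms4a7, Apoe and Pla2g7, with a root mean square difference of 0.19 to 0.27 on the log2 scale over the 12 mice, where the profile itself varied by 0.58. Apoe, an apolipoprotein that macrophages make, was at 190 ± 28.2 FPKM in normal, 275 ± 196 in colitis and 91.6 ± 5.03 FPKM in colitis mice receiving BBR (SD, n = 3 each). The genes most like Csf1r were P2ry13, Vsir, Jaml, Tmem86a and Serping1, with differences of 0.22 to 0.29. Those most like Cd14 were Prps1, Gna14, Nsf, Cdcp1 and Tmsb10, with differences of 0.28 to 0.32. Of the 10 genes themselves, Adgre1 was closest to Csf1r (0.27) and Cd68 closest to Cd14 (0.65), whereas Cd14 and Csf1r differed by 1.02.

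Lists of genes around these 10 were described in the same way, by their counts and medians. Of 15 tested genes of monocyte recruitment and blood monocytes, 14 had higher means in colitis mice, with a median log2 difference of 1.70, and 4 passed the adjusted limit, where 0.653% of all genes were higher at that limit. With BBR in colitis all 15 were lower, with a median of −1.33, and 9 reached an unadjusted P of at most 0.05, which 5.20% of all genes did in that direction. Averaged over both arms, the chemokine genes Ccl8 and Ccl7 rose by 3.62 and 2.65, and Chil3, which encodes a secreted chitinase-like protein, by 4.63 (limma adjusted p = 0.00245, 0.0116 and 0.00701). The monocyte antigen gene Ly6c2 fell by 2.51 (adjusted p = 0.0163), and it was the only one of the 15 that was lower in colitis without BBR. Of 14 tested products of inflammatory macrophages 13 were higher in colitis, with a median of 3.22 and 6 past the adjusted limit, again against 0.653% of all genes, and 13 were lower with BBR in colitis, with a median of −2.01. Averaged over both arms, Socs3 rose by 3.85, Tnf by 4.75, Nos2 by 5.96 and Il6 by 3.27 (limma adjusted p = 0.000253, 0.00153, 0.00324 and 0.00967). Which cells of the tissue these transcripts came from was not tested.

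A list of 21 tested genes around resident gut macrophages also holds the ligand genes Cx3cl1 and Gas6. Its genes Cd4 and Lyve1 are counted again below, among markers of T cells and endothelium. Vsig4, Il10, Cd209g and Siglec1 had means under 0.4 FPKM. Of the 21, 12 were higher in colitis, with a median of 0.32, and 15 were lower with BBR in colitis, with a median of −0.74. By limma 0 passed the adjusted limit in either comparison. At an unadjusted P of at most 0.05 in either direction there were 5 of the 21 in colitis, against 21.4% of all genes, and 8 with BBR in colitis, against 6.39%. Averaged over both arms, the lectin gene Mgl2 fell by 1.25 (limma adjusted p = 0.0192), and the chemokine receptor gene Cx3cr1 differed by −0.85 (0.0512), Gas6 by −0.90 (0.0882) and Aif1 by 0.91 (0.103). Of 12 genes of the Csf1r axis and of macrophage transcription factors, 7 were higher in colitis and 5 lower, with a median of 0.14, and 9 were lower with BBR in colitis, with a median of −0.25. The growth factor gene Csf1 fell by 1.11 over both arms (limma adjusted p = 0.0481), while Spi1, which encodes PU.1, differed by 0.70 (0.0708), Nr1h3 by −0.82 (0.0534) and Cebpa by −0.46 (0.163).

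Of 19 phagosome and lysosome genes, 17 were higher in colitis, with a median of 0.62 and 1 past the adjusted limit (0.653% of all genes), and 14 were lower with BBR in colitis, with a median of −0.70. The protease gene Lgmn rose by 1.17 over both arms (limma adjusted p = 0.0115), and the lipid scavenger gene Cd36 fell by 1.96 (0.0232), while Lyz1 differed by 0.85 (0.104) and Ncf4 by 0.88 (0.107). Of 8 partners of Cd14 in endotoxin sensing, 6 were higher in colitis, with a median of 0.46, and 7 were lower with BBR in colitis, with a median of −0.26. Lbp, which hands endotoxin to Cd14, rose by 2.67 over both arms (limma adjusted p = 0.00338), while Tlr4 differed by 0.49 (0.148), Myd88 by 0.32 (0.160) and Tirap by 0.27 (0.216). Of 8 tested partners of C1q in the complement pathway, 5 were higher in colitis, with a median of 0.61, and all 8 were lower with BBR in colitis, with a median of −0.82. C2 rose by 1.42 and C3 by 1.67 over both arms (limma adjusted p = 0.0311 and 0.0428), while the inhibitor gene Serping1 differed by −0.54 (0.128) and C4b by 0.72 (0.139). Of 7 tested genes of haptoglobin and heme handling, 5 were higher in colitis, with a median of 0.52, and 4 were higher with BBR in colitis, with a median of 0.28. Haptoglobin itself (Hp) rose by 4.24 over both arms (limma adjusted p = 0.0291), while Hmox1 differed by 1.75 (0.0636), Blvrb by −0.41 (0.127) and Hba-a1 by 1.62 (0.156).

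Markers of other cells differed between the same groups, and their part in the results was not tested. All 12 neutrophil markers were higher in colitis, with a median log2 difference of 3.49, and 11 were lower with BBR in colitis, with a median of −2.04. In normal mice Ly6g alone was at 260 to 707 FPKM, while S100a8, Ngp, Fpr1 and Stfa2l1 were at 0 and S100a9 was at most at 0.45 FPKM. A sum over the list therefore says little about its markers other than Ly6g in normal mice. The summed level of the 12 markers, most of it from Ly6g, lay between 262 and 708 FPKM in normal, 630 and 4231 in colitis and 492 and 2986 FPKM in colitis mice receiving BBR, with S100a8 at 0 in 6 mice, Fpr1 in 6 and Ngp in 8. Of 4 leukocyte markers all were higher in colitis and lower with BBR in colitis, with sums of 48.7 to 59.5, 58.3 to 189 and 23.9 to 84.7 FPKM in these groups. The 6 smooth muscle markers were all lower in colitis and all higher with BBR in colitis, with a median of 1.70 in the latter, and none was at 0. Their sums were 1628 to 3039 FPKM in normal, 70.9 to 651 in colitis and 475, 494 and 3435 FPKM in colitis mice receiving BBR, the last being mouse 4. The B and plasma cell markers were lower in 5 of 6 cases, with sums of 202 to 246, 36.1 to 103 and 6.48 to 38.8 FPKM. Epithelial markers summed to 8352 to 11870, 7817 to 11030 and 5724 to 8943 FPKM in these groups. Of the 8 dendritic cell markers 4 were higher in colitis and 7 lower with BBR in colitis, with medians of 0.07 and −0.66, and of the 6 T cell markers 4 were higher and 6 lower, with medians of 0.32 and −0.52. Markers of fibroblasts had medians of −0.28 and −1.10 in the same comparisons, those of endothelium −1.09 and −0.22, those of mast cells 0.46 and −0.65, and the 2 tested squamous epithelium markers 0.91 and −0.81.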

How the data were processed

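Rectal RNA of 12 mice was measured by bulk RNA-seq, and groups follow the labels of the samples. According to the methods of the study, ribosomal RNA was depleted and single-end reads were filtered with SOAPnuke, while the labels name another library kit and the colorectum. The submitters' processing notes name Bowtie2 2.2.5, RSEM 1.2.12 and mm9. The authors deposited RSEM estimates as 1 value for each gene in each mouse, taken here as FPKM. This unit was inferred from the values and is not named in the file, and whether they are TPM was not tested. The 17734 genes were filtered at a mean of 0.1 over the 12 mice, and log2(FPKM + 0.1) of 15315 genes entered a limma fit (version 3.58.1, R 4.3.3) that gave each group its mean, with an empirical Bayes trend and Benjamini-Hochberg adjustment over all genes. On this scale the change of low genes is understated. A second limit is a P of at most 0.05 before adjustment, which the study's methods use. Exact two-sided permutation tests of 3 mice against 3 cannot go below 0.1, and those within both BBR arms used 400 relabelings. Nothing states whether the 3 mice of a group came from separate cages, and p-values measure the spread between these mice.

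The 10 genes, the lists and the comparisons were chosen with earlier results of these data known. Each list names up to 4 genes with the smallest p for colitis averaged over both BBR arms, and the most similar genes are 5 per profile with the smallest root mean square difference. Other settings tried were pseudocounts of 1 and 0.01, no filter and one at a mean of 1, centring on the median, quantile normalization, no trend, a fit of only the groups compared, a replicate block, a block that sets apart the mice numbered 4, a fit without these, and each mouse left out in turn. Across genes, the deviations of same-numbered normal mice and normal mice receiving BBR correlated at 0.29, 0.11 and 0.66 for the numbers 1, 3 and 4. Normal mouse 1 correlated at 0.37 with BBR-treated normal mouse 3, and normal mouse 3 at 0.46 with BBR-treated normal mouse 1. Pairing by number was thus not borne out for the numbers 1 and 3. The main fit has no block, and the replicate block was run as an alternative. The other comparisons share at most 2 numbers. Depth was estimated from steps of low values of genes with 1 GENCODE transcript, a read length of 50 bases and a floor of 3 reads. Analysis outside R used Python 3.11.15, NumPy 2.4.6 and pandas 2.3.3.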

Additional observations from a re-analysis of the deposited data

Results flagged for a closer look

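The effect of BBR on Lyz2 differed between colitis and normal mice at an unadjusted limit of 0.05, with a log2 difference of −1.36 in colitis mice (−0.81 without colitis mouse 2) and 0.28 in normal mice. The difference between them was −1.64, −1.09 without colitis mouse 2 and −2.15 without colitis mouse 4, and it did not pass the adjusted limit over all genes (limma adjusted p = 1.00). The unadjusted limit was missed after centring on the median (−1.52), without mouse 3 of the normal mice receiving BBR (−1.44) and without mouse 4 of the colitis mice receiving BBR (−1.42). With the replicate block 6 of the 10 genes reached it, so it was not particular to Lyz2. Lyz2 was lower than in colitis mice 1 and 2 in each of the 3 colitis mice receiving BBR, and lower than in colitis mouse 4 in 2 of them.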

How the results depend on the processing

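The number of the 10 genes past the adjusted limit was recomputed under 23 alternatives, 112 values in all, and 17 moved from 0 or by more than 1.5 times. For colitis against normal the main count of 0 became 1 with the replicate block (Cd14), 2 with the block for the mice numbered 4 (Cd14 and Lyz2), 1 with only the groups compared and 1 with only the mice numbered 1 to 3, and ranged from 0 to 1 with a mouse left out. For colitis with BBR against normal with BBR it became 1 with only the mice numbered 1 to 3, and ranged from 0 to 1 with a mouse left out. For colitis averaged over both BBR arms the count of 2 ranged from 0 to 3 with a mouse left out. It stayed at 0 under every alternative run for BBR in normal mice, for BBR in colitis and for the interaction. The replicate block changed no other adjusted call of the 10 genes. At an unadjusted P of at most 0.05 the replicate block moved the count from 4 to 5 for colitis against normal, from 6 to 7 for BBR in colitis, from 4 to 6 for colitis with BBR against normal with BBR, from 2 to 5 for the average over both arms and from 1 to 6 for the interaction.

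Of 1120 single-gene values, 0 changed sign among those at an unadjusted P of at most 0.05 in either fit, and 67 did among the rest. For BBR in colitis, 6 of the 10 genes were at that limit, and 1 after centring on the median and 5 after quantile normalization. The count of all genes past the adjusted limit was 165 for colitis against normal, 734 with the replicate block, 1412 with the block for the mice numbered 4 and 11 to 211 when a mouse was left out. For the average over both arms it was 2188, ranging from 1025 after centring to 6187 with the mice numbered 1 to 3, and from 319 to 5943 when a mouse was left out. For colitis with BBR against normal with BBR it was 6, and 2302 with the mice numbered 1 to 3. For BBR in colitis it was 0, and up to 58 when a mouse was left out. The cause of these shifts was not tested. Depth limits Cd163 most, and 3 mice in each group limit every comparison.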
